A study of Mus musculus with 4 samples.

Results

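The genes described here are 10 genes of muscle protein breakdown: the transcription factors Foxo1 and Foxo3, the ubiquitin ligases Trim63, Trim55, Trim54, Fbxo32, Fbxo30, Fbxo40 and Mib1, and the deubiquitinase Otud1. They were chosen by symbol from the 28989 genes of the count tables, and table entries holding more than 1 gene were not used. All 10 were measured, and all 10 passed the filter on low counts that left 9317 genes for testing. The samples were 4 mouse tibialis anterior muscles, a fast muscle of the lower leg, all in a single group for which the labels name no strain, age, sex, genotype or treatment. Each muscle had been cryosectioned along 1 axis and sequenced section by section (TOMO-seq with CEL-Seq2 chemistry, which counts transcript ends). The labels neither tie the muscles to separate animals nor say which anatomical end was cut first, so "first end" stands for the low barcode numbers, and the p-values reflect the spread among these muscles and zones alone.

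Muscle mass is set by the balance between protein synthesis and breakdown. When insulin and growth factor signalling through Akt is strong, FoxO factors are phosphorylated and held outside the nucleus. When it falls, as in fasting, disuse or denervation, FoxO1 and FoxO3 enter the nucleus and activate genes of the ubiquitin-proteasome system and of autophagy. Trim63 (MuRF1) and Fbxo32 (atrogin-1) are the best known of these and serve as markers of atrophy. Trim55 (MuRF2) and Trim54 (MuRF3) are the sarcomere-associated relatives of Trim63. Fbxo30 and Fbxo40 are F-box proteins, the substrate-binding part of ligase complexes. Otud1 removes ubiquitin, and Mib1 ubiquitinates Notch ligands so that they are taken up by the cell that presents them.

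The authors kept 37 to 46 sections per muscle, 171 in all, which held 17114433 to 26989829 transcripts per muscle and 86190 to 1159697 per section. The length of each muscle was cut into 5 equal zones, and the 20 zone sums held 1989683 to 6604613 transcripts. Mitochondrially encoded genes made up 59.1% to 66.9% of the transcripts of a muscle. Markers of the labelled tissue were high in every zone: the summed level of 10 skeletal fibre genes was 69944 to 138905 CPM (counts at an equal library total, with TMM factors, the trimmed mean of M-values). None of the markers of the 11 cell types examined was at 0, and the lowest, the slow myosin Myh7, had 13 transcripts in all. The largest share of the possible molecular identifiers that a member used in a section was 5.13% (Trim63), so saturation did not touch the members. Muscles 1 and 2 carried another set of section barcodes than muscles 3 and 4, and called results of members are also given within these sets.

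Mib1, Otud1 and Trim63 differed among the 5 zones, and the other 7 members did not pass that test. The background for this was 3.98% of the 9317 genes (371 genes). The members were chosen with earlier results of these data known, so this share and those given below do not test the set. By summed zones, Otud1 was lower at the ends than in the middle, and Mib1 was lower at the first end than at the last. Trim63 was highest in the fourth zone in 3 of 4 muscles by these sums. The edgeR quasi-likelihood adjusted p over all genes was 2.50e-04 for Mib1, 0.0252 for Otud1 and 0.0289 for Trim63. A nominal p under 0.05 was reached by 5 members, Fbxo32 and Trim54 being the others, and by 1447 of the 9317 genes. The call of Otud1 was lost without muscle 1, 2 or 3 in turn (edgeR adjusted p = 0.0907, 0.213 and 0.605), with DESeq2 (DESeq2 adjusted p = 0.193) and within each barcode set (0.289 and 0.439). That of Mib1 was lost without muscle 3 (edgeR adjusted p = 0.0797) and within muscles 1 and 2 (0.544), and it held within muscles 3 and 4 (0.00236).

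**Figure D1:**
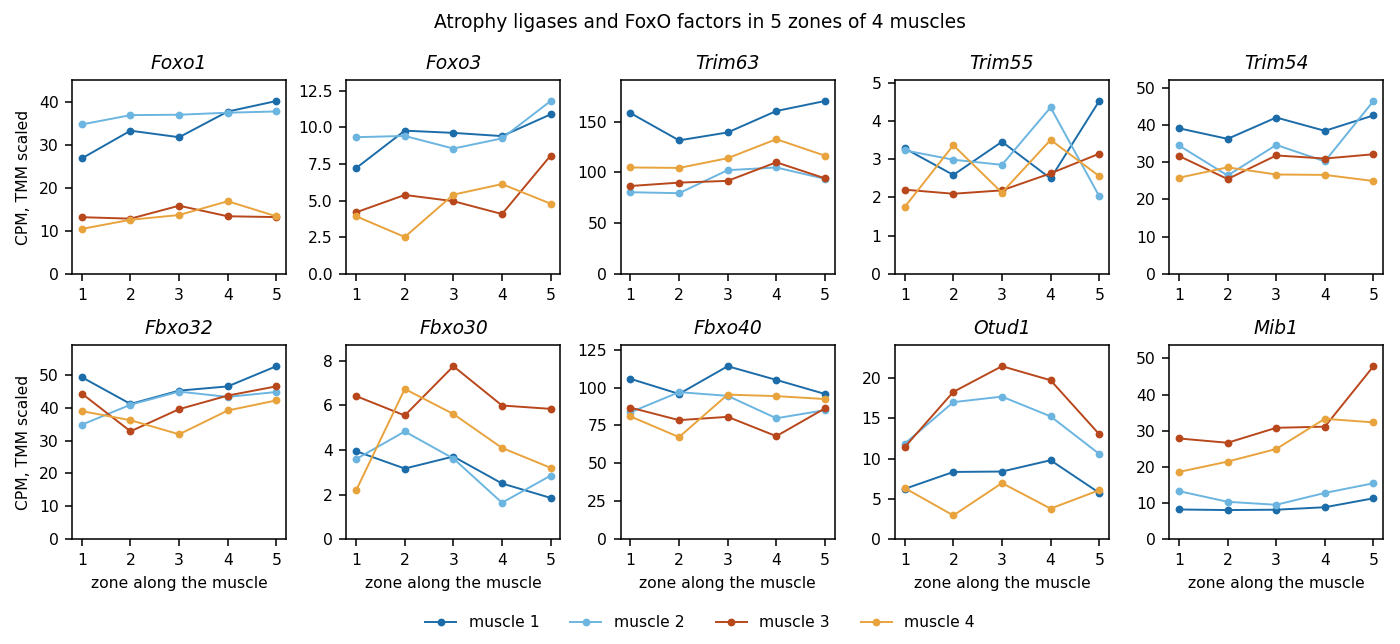
TMM-scaled CPM (vertical axes, from 0, on a scale of its own for each gene) in zones 1 to 5 (horizontal axes) for the 10 members, with 1 line per muscle. The lines of Otud1 peak in zone 3 or 4 in the 4 muscles, those of Mib1 end highest in zone 5 in muscles 1 to 3, and those of Foxo1 and Mib1 lie apart by barcode set.

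The stretch before the gene start is shown for Otud1 and Trim63, since both were called in a zone test and their starts lie on chromosomes 2 and 4. No such stretch of Mib1, the other called member, was searched. Both sequences are the 250 bases before the start in RefSeq's table (build GRCm38.p6), at chr2:19657481-19657730 on the plus strand and chr4:134314870-134315119 on the plus strand. Capitals mark the FoxO core motif GTAAACA or its complement TGTTTAC, searched on both strands.
Otud1: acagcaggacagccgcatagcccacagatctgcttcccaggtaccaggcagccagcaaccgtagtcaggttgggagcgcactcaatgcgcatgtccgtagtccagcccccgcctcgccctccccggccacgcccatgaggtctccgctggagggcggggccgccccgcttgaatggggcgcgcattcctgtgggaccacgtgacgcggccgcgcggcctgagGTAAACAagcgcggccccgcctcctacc
Trim63: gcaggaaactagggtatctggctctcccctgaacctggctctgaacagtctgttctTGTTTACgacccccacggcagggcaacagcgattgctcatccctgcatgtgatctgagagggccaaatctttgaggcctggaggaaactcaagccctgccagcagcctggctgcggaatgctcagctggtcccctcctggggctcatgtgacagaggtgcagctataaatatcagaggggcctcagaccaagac
In Otud1 the motif begins 28 bases before the start on the sense strand, and in Trim63 it begins 194 bases before the start on the opposite strand. Windows of this length held the motif for 2 of 7 members with an entry in the table, beside 956 of 27025 genes (3.54%). Counted by window, 3.17% of all 32851 held it. Foxo1, Foxo3, Trim54, Fbxo30 and Fbxo40 had a window without these letters. A match of letters is a description and no evidence of binding.

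Otud1, an OTU-domain deubiquitinase, was lower at both ends than in the middle. The gene lies on chromosome 2 at 19657752 to 19660583 (GRCm38, GENCODE M21, plus strand), with no annotated gene overlapping it. In muscle 1 its level was 6.24, 8.34, 8.40, 9.79 and 5.75 CPM in zones 1 to 5. In muscle 2 it was 11.8, 17, 17.7, 15.2 and 10.6 CPM. In both muscles the 2 end zones were the lowest of the 5. Muscle 3 gave 11.4, 18.3, 21.5, 19.7 and 13 CPM. Muscle 4 gave 6.35, 2.95, 6.96, 3.8 and 6.08 CPM. Muscle 3 had the shape of the first pair, whereas in muscle 4, from 7 to 36 transcripts per zone, zones 2 and 4 were the lowest.

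The difference between the mean of zones 1 and 5 and zone 3 was -0.61 ± 0.14 log2 units (SE) for Otud1, 1.53-fold lower at the ends, with a 95% interval of -0.89 to -0.33. The edgeR adjusted p was 0.00856, and the ends were the lower in each of 4 muscles, by -0.46, -0.64, -0.79 and -0.15 log2 units in muscles 1 to 4. In muscle 4 the median section, without TMM factors, did not show this, at 5.83, 4.70 and 4.81 CPM in zones 1, 3 and 5. Otud1 was the member called in this contrast, 1 of 10, against 1.45% of all genes (0.826% lower and 0.623% higher). Over the 4 muscles the means were 13.6 ± 7.06 CPM (SD, n = 4) in zone 3, 12.1 ± 6.89 in zone 4, 11.6 ± 7.29 in zone 2, 8.96 ± 3.09 in zone 1 and 8.86 ± 3.55 in zone 5. No 2 neighbours in that order differed by more than their SD, which is mostly the spread between muscles. Within muscles 1 and 2 alone the difference was -0.60 (edgeR adjusted p = 0.227) and within muscles 3 and 4 alone -0.63 (edgeR adjusted p = 0.177). The call was also lost without muscle 2 (-0.60, edgeR adjusted p = 0.0912), without muscle 3 (-0.48, edgeR adjusted p = 0.433), and with 3 zones, where the difference was -0.24 (edgeR adjusted p = 0.466). Over all alternatives the adjusted p of Otud1 ran from 9.34e-04 to 1.

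Between the 2 ends Otud1 did not differ beyond its error, at 0.02 ± 0.19 log2 units (edgeR adjusted p = 0.982), an interval of -0.36 to 0.41. Along the single sections of muscle 3, where it had 481 transcripts, position along the muscle was called for Otud1 (edgeR spline fit, adjusted p = 0.0415), though not with the 2 outermost sections at each end left out (adjusted p = 0.105). The background there was 3.44% of the genes tested. In CPM of single sections, which carry no TMM factor, zone 1 ran from 2.67 over a median of 12 to 18.1, and zone 3 from 10.7 over 17.9 to 34.9. Sections of zone 5 ran from 0 over 17.4 to 24.4 CPM. The median section of zone 5 therefore lay near that of zone 3, while the summed zone did not. In the other 3 muscles the spline fit of Otud1 gave adjusted p-values of 0.309 to 0.98.

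Some markers of other cells also differed in the same contrast. At the ends, 4 of 8 genes of fibro-adipogenic progenitors, 4 of 5 tested Schwann cell genes, 1 of 4 tested macrophage genes, 1 of 8 endothelial genes and 1 of 3 tested slow fibre genes were lower, with the same fit and threshold. Other markers went the opposite way, with 2 of 5 tested tendon cell genes (Chad at 1.01 and Prg4 at 0.55) and 2 of 3 tested fat cell genes (Adipoq at 1.94 and Cfd at 1.60) higher at the ends. The 8 progenitor genes ran from -0.87 to 0.43 log2 units, with a median of -0.39. The summed progenitor markers were 340.3 to 510.0 CPM in zone 1, 482.6 to 638.0 in zone 3 and 444.9 to 560.9 in zone 5. The summed Schwann cell markers were 12.6 to 41.8, 24.2 to 33.2 and 9.91 to 14.2 CPM in these zones. The summed macrophage markers were 14.8 to 27.8, 23.3 to 54.2 and 18.5 to 32.9 CPM. In muscle 4 the progenitor sum was 525.1 CPM in zone 3 and 549.8 CPM in zone 5. Its Schwann cell sum was 41.8 CPM in zone 1 and 28.2 CPM in zone 3. In the other muscles the progenitor and Schwann cell sums were lower in both end zones than in zone 3. The part of these markers in the difference of Otud1 was not tested. In whole sections, fewer cells of a type and less RNA per cell cannot be told apart.

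**Figure D2:**
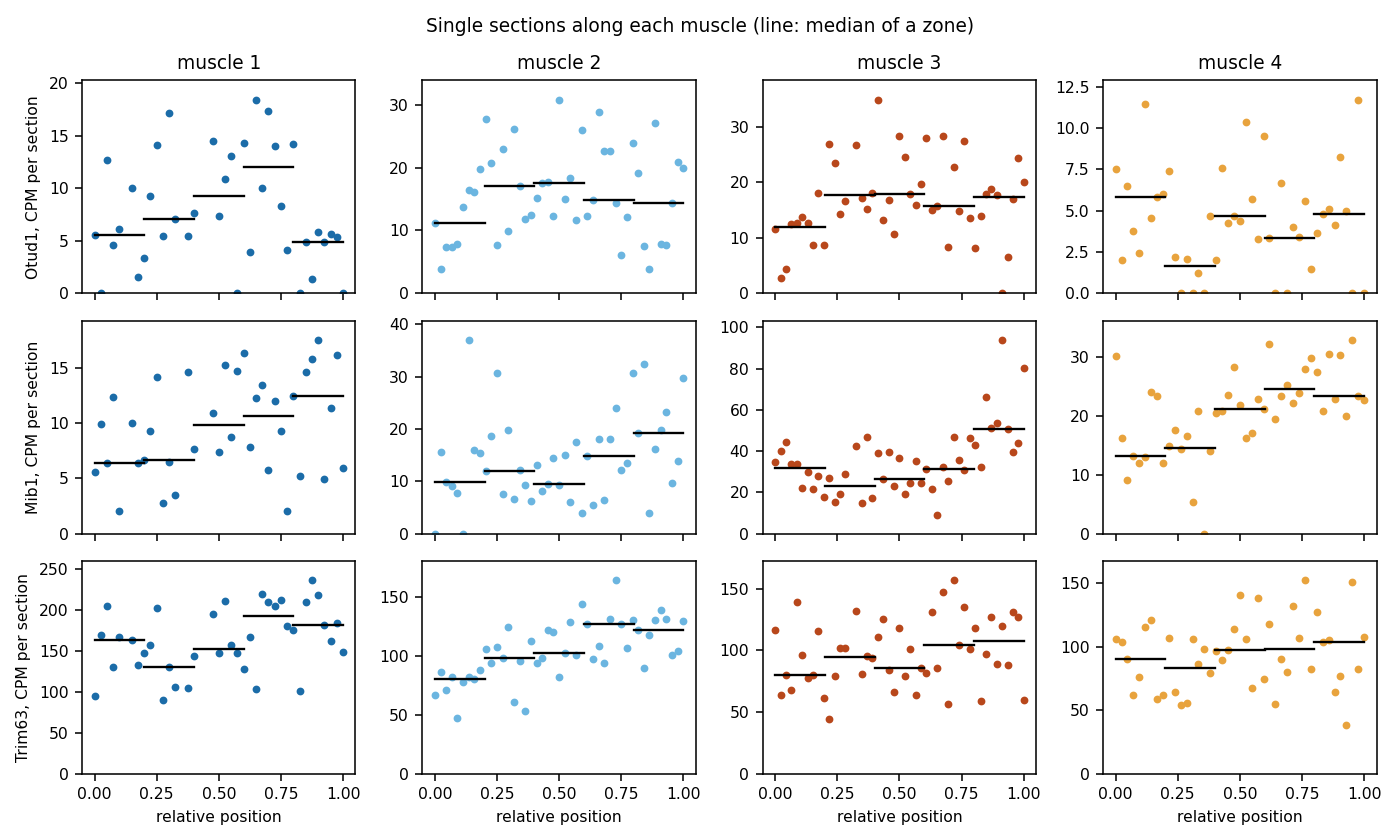
CPM in single sections without TMM factors (vertical axes, from 0) against relative position along the kept sections (horizontal axes) for Otud1, Mib1 and Trim63 in muscles 1 to 4, with black lines at the median of each zone. In muscle 3 the median section of Mib1 was 31.8 CPM in zone 1 and 50.8 CPM in zone 5.

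Mib1, the ligase of Notch ligands, was lower at the first end than at the last. The gene lies on chromosome 18 at 10725548 to 10818704 (GRCm38, plus strand). In muscle 1 its level was 8.21, 8.06, 8.15, 8.83 and 11.3 CPM in zones 1 to 5. In muscle 2 it was 13.3, 10.3, 9.51, 12.8 and 15.5 CPM. In both, zone 5 was the highest. Muscle 3 gave 27.9, 26.7, 30.8, 31.1 and 47.8 CPM. Muscle 4 gave 18.6, 21.5, 24.9, 33.3 and 32.3 CPM. Zone 5 was again the highest in muscle 3, and in muscle 4 zones 4 and 5 lay together above the rest.

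Zone 1 minus zone 5 was -0.67 ± 0.13 log2 units (SE) for Mib1, 1.59-fold lower at the first end, with a 95% interval of -0.93 to -0.41. The edgeR adjusted p was 5.36e-04, and the difference was negative in 4 of 4 muscles, at -0.44, -0.21, -0.77 and -0.78 in muscles 1 to 4. Mib1 was the 1 member of 10 called in this contrast, against 3.18% of all genes (1.14% lower at the first end and 2.04% higher). The means over the 4 muscles were 26.7 ± 16.7 CPM (SD, n = 4) in zone 5, 21.5 ± 12.5 in zone 4, 18.4 ± 11.3 in zone 3, 17 ± 8.39 in zone 1 and 16.6 ± 8.89 in zone 2, with every gap between neighbours inside the SD between muscles. Relative to zone 3 the fitted differences of Mib1 were -0.12 in zone 1, -0.13 in zone 2, 0.21 in zone 4 and 0.55 in zone 5. The ends against the middle gave 0.22 ± 0.11 (edgeR adjusted p = 0.425).

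Within muscles 3 and 4 alone the difference of Mib1 was -0.80 (edgeR adjusted p = 0.00136), and within muscles 1 and 2 alone it was -0.32 (edgeR adjusted p = 0.695). The difference between these 2 values was itself tested, in a fit added after the data had been seen, and was -0.47 (edgeR adjusted p = 0.885), so the sets were not shown to differ. Without muscle 3 the value was -0.59 (edgeR adjusted p = 0.0603), and with 10 zones it was -0.62 (edgeR adjusted p = 0.115). Over all alternatives the adjusted p of Mib1 ran from 1.08e-04 to 1. Over single sections, position was called for Mib1 in muscle 3 (edgeR spline fit, adjusted p = 6.18e-04), and in the other 3 muscles its adjusted p-values were 0.13 to 0.952. In muscle 3 the sections of zone 1 ran from 17.5 over a median of 31.8 to 44.4 CPM and those of zone 5 from 32.3 over 50.8 to 93.9 CPM. Of the 40 fits of a member along the sections of 1 muscle, these of Otud1 and Mib1 were the 2 that were called. The background was 1.22%, 3.06%, 3.44% and 1.39% in muscles 1 to 4.

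Mir133a-1hg, the host transcript of a muscle microRNA pair, is annotated on the opposite strand inside Mib1 without overlapping its exons. Whether the counting used strand is not given in the sources used here. These tables count Mir133a-1hg on its own, at 15.7, 15.7, 13.3 and 8.74 CPM in muscles 1 to 4, and its first end differed from its last by -0.24 (edgeR adjusted p = 0.559). Entries naming Mib1 together with another gene held 2, 2, 16 and 35 transcripts in the 4 muscles, at most 7.28% of the gene's own count.

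Markers of other cells also differed between the 2 ends. At the first end 3 of 5 tested tendon cell genes were lower, all 5 erythrocyte genes were higher, and 2 of 5 Schwann cell genes, 2 of 6 smooth muscle genes and 2 of 3 tested slow fibre genes were higher. Of 8 fibro-adipogenic progenitor genes 1 was higher (Cxcl14 at 0.89) and 1 lower (Col1a1 at -0.67). Of 8 endothelial genes 1 was higher (Kdr at 0.78). The summed tendon markers were 42.7 to 49.9 CPM in zone 1 and 70.3 to 178.2 CPM in zone 5. The summed erythrocyte markers were 1342 to 4215 CPM in zone 1 and 603.5 to 1611 CPM in zone 5. The fast myosin Myh4 was lower at the first end (-0.31, edgeR adjusted p = 0.024) and Myh1 higher (0.29, edgeR adjusted p = 0.0401). Their part in the difference of Mib1 was not tested.

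Trim63, the RING-finger ligase MuRF1 of the sarcomere, differed among the zones without a difference between the ends and the middle. The gene lies on chromosome 4 at 134315120 to 134329629 (GRCm38, plus strand). In muscle 1 its level was 158, 131, 139, 160.4 and 170.2 CPM in zones 1 to 5. In muscle 2 it was 80.4, 79.5, 102, 105 and 93.6 CPM. Zone 2 was the lowest in both. Muscle 3 gave 86.6, 89.9, 91.6, 109.9 and 94.1 CPM. Muscle 4 gave 105, 104, 114, 133 and 116 CPM. Zone 4 was the highest in muscles 2, 3 and 4, and zone 5 in muscle 1. By the median section, without TMM factors, zone 4 was the highest in muscles 1 and 2 (192.6 and 126.8 CPM). In muscles 3 and 4 the median section of zone 5 lay above that of zone 4, at 107.7 against 104.3 CPM and 103.5 against 98.4 CPM.

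Relative to zone 3, the fitted differences of Trim63 were -0.08, -0.15, 0.18 and 0.07 log2 units in zones 1, 2, 4 and 5. The means over the 4 muscles were 126.9 ± 25.4 CPM (SD, n = 4) in zone 4, 119 ± 36 in zone 5, 112 ± 20.5 in zone 3, 108 ± 35.4 in zone 1 and 101 ± 22.5 in zone 2, and neighbours in that order differed by less than their SD. The ends against the middle gave -0.01 ± 0.07 (edgeR adjusted p = 0.986) and the first against the last end -0.15 ± 0.08 (edgeR adjusted p = 0.428), negative in 4 of 4 muscles. The call of any zone difference for Trim63 was lost without muscle 2, 3 or 4 in turn, with edgeR adjusted p-values of 0.19, 0.188 and 0.127. It was 0.39 within muscles 1 and 2 and 0.243 within muscles 3 and 4, and ran from 0.0239 to 1 over all alternatives. With 3 zones in place of 5 the first end was called lower for Trim63, at -0.24 (edgeR adjusted p = 0.0206).

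**Figure D3:**
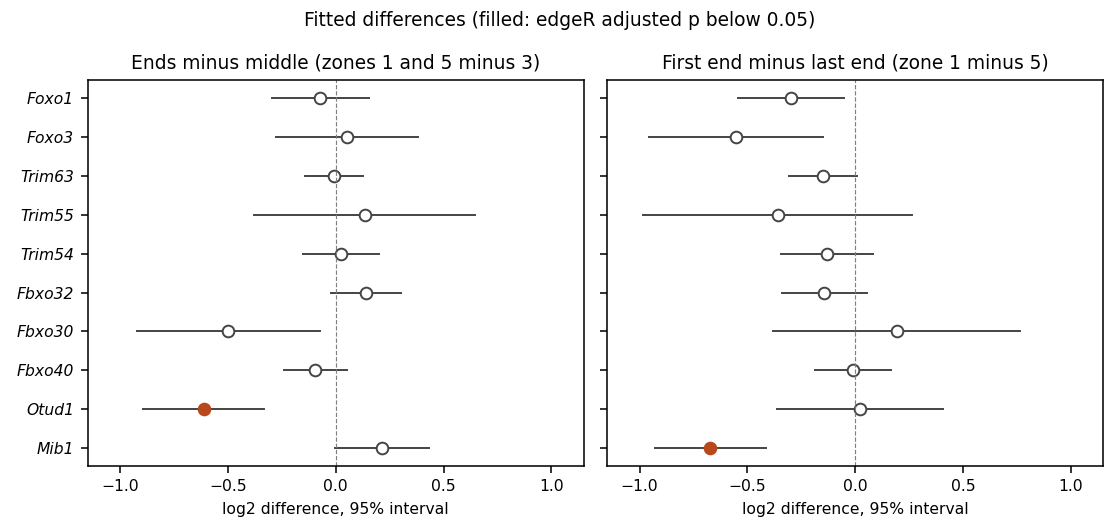
Fitted log2 differences (horizontal axes) with 95% intervals for the 10 members, ends minus middle on the left and first end minus last end on the right; filled points passed the edgeR threshold of 0.05. Otud1 is the filled point on the left at -0.61 and Mib1 the one on the right at -0.67.

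Fbxo32, the F-box ligase atrogin-1, ran from 31.9 to 52.6 CPM over the 20 zone sums. Its ends differed from its middle by 0.14 ± 0.08 (edgeR adjusted p = 0.521) and its first end from its last by -0.14 ± 0.10 (edgeR adjusted p = 0.594). The latter was negative in 4 of 4 muscles, at -0.09, -0.36, -0.07 and -0.11. Gm15943 overlaps its exons on the opposite strand and was counted at 4.45, 3.96, 0.914 and 1.01 CPM in the 4 muscles.

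Foxo3 had a lower level at the first end in each muscle. Foxo1 did so in muscles 1, 2 and 4, with its ends all but equal in muscle 3 (-0.003 log2 units). Neither gene passed the test. Foxo1 gave 26.9, 34.8, 13.2 and 10.5 CPM in zone 1 of muscles 1 to 4, against 40.3, 37.9, 13.3 and 13.4 CPM in zone 5. The fitted difference was -0.30 ± 0.12 (edgeR adjusted p = 0.223). Foxo3 gave 7.23, 9.34, 4.21 and 3.94 CPM in zone 1, against 10.9, 11.8, 8.09 and 4.80 CPM in zone 5. The fitted difference was -0.55 ± 0.20 (edgeR adjusted p = 0.142), with an interval of -0.96 to -0.15 before any correction for the number of genes. At the ends against the middle, Foxo1 gave -0.07 ± 0.11 and Foxo3 0.05 ± 0.16 (edgeR adjusted p = 0.879 and 0.953).

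The other members had narrow or very uncertain differences. Fbxo40, which binds the insulin receptor substrate Irs1, ran from 67.3 to 114 CPM, and its ends differed from its middle by -0.09 ± 0.07 (edgeR adjusted p = 0.675). Trim54, counted at 24.9 to 46.4 CPM, gave 0.03 ± 0.09 (edgeR adjusted p = 0.958), and Gm15469 overlaps its exons on the opposite strand with at most 0.972 CPM in a muscle. The intervals of these 2 genes at the ends were -0.24 to 0.05 and -0.15 to 0.20. Trim63, Fbxo32 and Fbxo40 had a count in every section. Trim55 had 241 transcripts in all, was counted in 55.8% to 81.1% of the sections of a muscle and ran from 1.75 to 4.52 CPM, with 0.14 ± 0.26 at the ends (edgeR adjusted p = 0.911). Fbxo30 had 377 transcripts in all, was counted in 62.2% to 93.5% of sections and ran from 1.63 to 7.75 CPM. Its ends gave -0.50 ± 0.21 (edgeR adjusted p = 0.298), negative in 4 of 4 muscles, with an interval of -0.92 to -0.07 before correction. Over the members not called, the 95% bounds reached -0.92 and 0.65 for the ends and -0.98 and 0.76 for the first against the last end, so differences up to that size lie inside the intervals of the shallowest genes. The median member differed by 0.01 at the ends and by -0.15 between the ends of the muscle, beside -0.01 and 0.00 for all genes tested.

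Between the muscles, the levels of most members, like those of most genes tested, did not overlap between the barcode sets. Foxo1 was at 34.1 and 36.9 CPM in muscles 1 and 2 (mean of the 5 zones) and at 13.7 and 13.4 CPM in muscles 3 and 4, a ratio of the means of 2.61. Foxo3 was at 9.39 and 9.68 CPM against 5.35 and 4.56 CPM, a ratio of 1.92. Both FoxO factors were thus higher in the first pair. Mib1 went the other way, with 8.91 and 12.3 CPM against 32.9 and 26.1 CPM, 2.78-fold higher in muscles 3 and 4. Fbxo30 was 1.68-fold higher there, at 3.03 and 3.30 CPM against 6.31 and 4.36 CPM. In all, 8 of 10 members did not overlap between the sets, 6 of them higher in muscles 1 and 2. The gap could be small, as for Fbxo32 at 41.7 CPM in muscle 2 and 41.4 CPM in muscle 3. Non-overlap was common and says little about the members. Of all genes, 35.3% were higher in both of muscles 1 and 2 and 33.2% in both of muscles 3 and 4. Past 2-fold these shares were 8.5% and 6.44%, and Foxo1 and Mib1 were the members past it. With 2 muscles per set the smallest two-sided exact permutation p is 0.333, so no test was made, and mouse, barcode set and preparation cannot be told apart.

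Trim63 and Otud1 overlapped between the sets. Trim63 was at 152, 92.1, 94.4 and 114 CPM in muscles 1 to 4, highest in muscle 1. Otud1 was at 7.71, 14.5, 16.8 and 5.23 CPM, high in muscles 2 and 3 and low in muscles 1 and 4. Fbxo32 had the smallest ratio of the highest to the lowest muscle among the 10, 1.25, and Mib1 the largest, 3.69. A test of whether the zone differences themselves differed between the sets called none of the 10 members in either contrast with edgeR, and none had a nominal p under 0.05. Over all genes that test called 0 at the ends, with 460 at a nominal p under 0.05, and 8 between the first and last end.

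**Figure D4:**
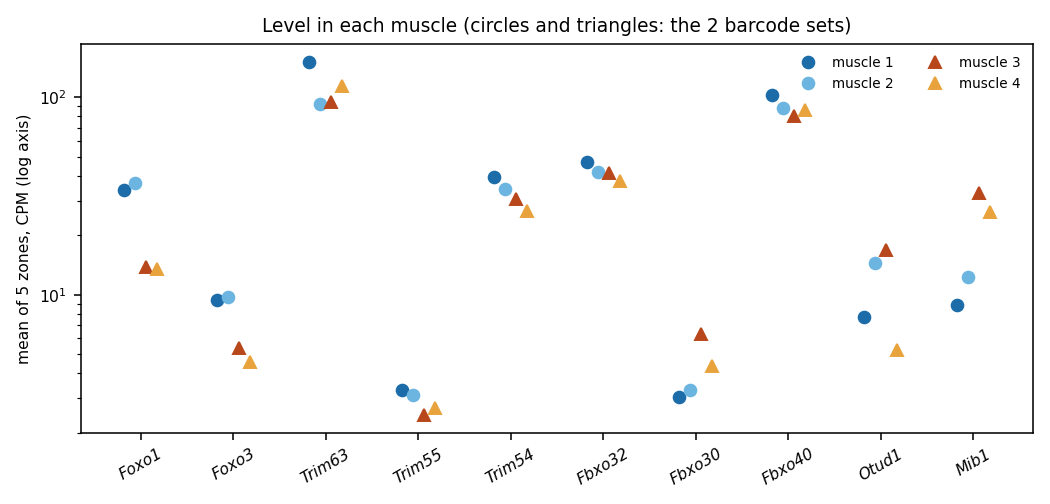
Mean level over 5 zones in CPM (vertical axis, log scale) of the 10 members (horizontal axis) in each muscle; circles are muscles 1 and 2, triangles muscles 3 and 4, which carry the other barcode set. The circles of Foxo1 (34.1 and 36.9 CPM) lie above its triangles (13.7 and 13.4 CPM), and those of Mib1 lie below.

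The other genes of the pathway mostly did not differ along the muscle. Of 119 listed genes 108 could be tested. At the ends edgeR called 0 of the 108, with 10 at a nominal p under 0.05, beside 1105 of the 9317 genes tested. DESeq2 called 1 of the 40 to which it gave an adjusted p, the ligase Nedd4 (0.20, DESeq2 adjusted p = 0.0444). Between the first and last end edgeR called 2 of the 108, both lower at the first end, beside 3.18% of all genes. Tsc22d3 (GILZ), a glucocorticoid target, was at 22.7, 22.3, 22 and 16 CPM in zone 1 of muscles 1 to 4 and at 32.9, 28.5, 26.3 and 23.3 CPM in zone 5. Its difference was -0.41 ± 0.12 (edgeR adjusted p = 0.0332), and leaving out any 1 muscle ended the call, with adjusted p-values of 0.0704 to 0.203. Nedd4 was at 283, 396, 611 and 385 CPM in zone 1 and at 325, 407, 715 and 579.5 CPM in zone 5. Its difference was -0.27 ± 0.07 (edgeR adjusted p = 0.0245), not called without muscle 3 (0.0936) or muscle 4 (-0.16, edgeR adjusted p = 0.437). Nedd4 gave -0.11 within muscles 1 and 2 (edgeR adjusted p = 0.745) and -0.41 within muscles 3 and 4 (0.0126), and was not called with 3 zones (0.164), 10 zones (0.738), no filter (0.065), the outermost sections left out (0.0517) or limma (limma adjusted p = 0.407). Tsc22d3 gave -0.45 and -0.38 within the sets (edgeR adjusted p = 0.196 and 0.453), and was not called with 3 zones (0.0788), 10 zones (0.11), no filter (0.15), the outermost sections left out (0.0739), DESeq2 (DESeq2 adjusted p = 0.0529) or limma (limma adjusted p = 0.28). Any difference among the zones was called for 2 of the 108, Nedd4 (edgeR adjusted p = 0.022) and the kinase Sgk1 (0.0339), beside 3.98% of all genes.

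By list, the first against the last end called 1 of 23 other FoxO factors and upstream signalling genes, 0 of 25 other genes induced in atrophy or by FoxO, 1 of 30 other ubiquitin ligases, 0 of 19 deubiquitinases and 0 of 11 Notch ligands, receptors and targets. Their nominal counts under 0.05 were 5, 2, 6, 1 and 1, in all 15 of 108, beside 1257 of the 9317 genes tested. DESeq2 called Pdk4, a FoxO target that restrains glucose oxidation, in the second of these lists (0.25, DESeq2 adjusted p = 0.0437; edgeR adjusted p = 0.0778). The medians of the 5 lists were -0.08, 0.01, -0.11, -0.04 and 0.03 between the ends of the muscle and -0.04, 0.04, 0.04, 0.01 and -0.06 at the ends against the middle.

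**Figure D5:**
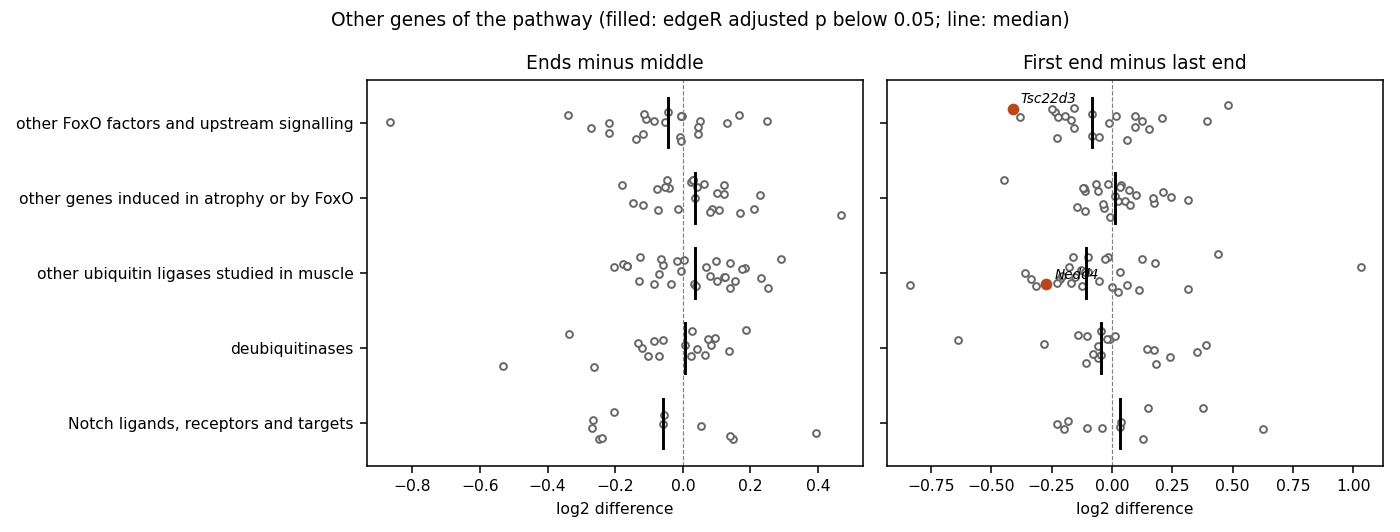
Log2 differences (horizontal axes) of the 108 tested genes in 5 lists of the pathway, ends minus middle on the left and first end minus last end on the right; each point is a gene, the line is the list's median, and filled points passed the edgeR threshold. No point is filled on the left, and Tsc22d3 (-0.41) and Nedd4 (-0.27) are filled on the right.

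The members were also set beside each other over the 20 zone sums after the mean of each muscle had been taken off. These correlations of log2 CPM are descriptions, since zones of a muscle share its library preparation and depth. Among the 45 pairs Pearson's r ran from -0.476 for Trim54 and Otud1 to 0.711 for Foxo3 and Mib1, with a median of 0.105. Trim63 and Fbxo32 gave 0.525, and Foxo1 and Foxo3 0.462. Of the 3428 other genes with at least 10 CPM, those most like Otud1 were Dhrs1, Abcf2 and Ezh1 (r of 0.77, 0.74 and 0.74). Those most like Trim63 were Washc2, Tial1 and Ago2 (0.79, 0.78 and 0.77). For Mib1 they were Car3, Tpm1 and Smyd2 (0.88, 0.88 and 0.87). At 8341 CPM, Tpm1 can have come near the limit of its molecular identifiers in the deepest sections. The genes named beside Otud1 and Trim63 were not themselves called for any zone difference (edgeR adjusted p = 0.765 to 0.964 and 0.108 to 0.688). Beside Mib1, Car3 and Smyd2 were called (edgeR adjusted p = 1.08e-09 and 1.01e-06) and Tpm1 was not (0.0503).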

How the data were processed

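For each of 4 muscles the authors deposited estimated counts per gene and section barcode, corrected for repeated use of the 6-base molecular identifiers, and a filtered table of normalized signal. The submitters' processing notes name STAR 2.7.7a and the build GRCm38; the counter and its strand setting were not named there. The deposited signal values served only to find the 171 sections the authors kept. Sections were ordered by barcode number. Counts were summed per muscle and zone, rounded, and tested by quasi-likelihood in edgeR 4.0.16 under R 4.3.3 (TMM, filterByExpr, muscle as a block, Benjamini-Hochberg adjustment over 9317 genes, threshold 0.05), after a check on simulated data. The biological coefficient of variation was 7.03%. Standard errors and 95% intervals were derived from the quasi-likelihood p-value. Single sections of each muscle were fitted with a natural spline of 4 degrees of freedom, for genes counted in at least 25% of sections; sections are not animals. Entries naming several genes (0.58% to 0.93% of counts) stayed out. Identifiers were matched to GENCODE M21 (28895 of 28989). Alternatives used limma 3.58.1 and DESeq2 1.42.0. The members and lists were chosen with earlier results of these data known. All members are named, with list genes past the threshold in either end contrast (up to 6 per list) and the 3 most similar genes of each called member; Sgk1 and the list genes called by DESeq2 were named after their values were seen.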

Additional observations from a re-analysis of the deposited data

Results flagged for a closer look

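In 3 of 30 groups of 4 per-muscle values, 1 muscle stood far from the other 3. Chance alone gives about 1 in 20. Fbxo32 in muscle 2 had a first-minus-last difference of -0.358 log2 units, further below 0 than in the other muscles. Fbxo40 in muscle 3 was 0.0999 higher at the ends than in the middle, while it was lower there in the other 3 muscles. Trim55 in muscle 2 was 0.564 higher at the first end and lower there in the other 3 muscles, from 9 transcripts in zone 1 and 5 in zone 5.

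Entries that name several genes, which entered no comparison, also held transcripts of members: 43 for Fbxo32, 10 for Foxo1, 7 for Foxo3 and 55 for Mib1 over the 4 muscles.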

How the results depend on the processing

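No called value of a member changed sign under any alternative run. Of the single-member values, 426 kept their side of the threshold, 35 fell short of it and 1 passed it (Trim63 with 3 zones). Most of the 426 belonged to members not called in the main fit, so that number does not measure how stable the calls were. Mib1 kept its call in 11 of 16 settings between the ends and in 12 of 16 for any zone difference. Otud1 kept its call in 7 of 15 settings at the ends and in 6 of 16 for any zone difference. Trim63 kept its call of any zone difference in 8 of 16. The count of members called at the ends, 1, became 0 with DESeq2 (which gave 4 of 10 an adjusted p, and none to Otud1), with 3 zones, limma on equally weighted sections, thinned zone sums, muscles 1 and 2 alone, muscles 3 and 4 alone, and no muscle block; leaving out each muscle gave 0 to 1. The 135 genes called at the ends became 42 with 3 zones, 333 with 10, 18 with limma, 80 thinned, 44 and 55 in the 2 barcode sets, and 0 without the block; leaving out a muscle gave 38 to 183. Between the first and last end 1 member became 2 with 3 zones and 0 with 10 zones, limma, muscles 1 and 2, or no block (leaving out a muscle: 0 to 1). The 296 genes became 131 with 10 zones, 19 with limma, 184 thinned, 161 and 74 by set, and 1 without the block (87 to 201). Any zone difference, 3 members and 371 genes, gave 0 and 42 with limma, 0 and 179 in muscles 1 and 2, 1 and 158 in muscles 3 and 4, 0 and 4 without the block, and 0 to 2 and 173 to 327 on leaving out a muscle, so each omission lost at least 1 of the 3 members. The 2 calls along sections became 1 without the outermost sections (Otud1 was lost). DESeq2 split its calls 74 higher to 28 lower at the ends, against 58 to 77 with edgeR, and 159 to 61 against 190 to 106 between the ends. Limma moved the median of all genes at the ends to -0.15, beside -0.60 for Otud1. The filter dropped Trim55 with 10 zones and with thinned sums. Otud1 at the ends ranged from -0.70 to -0.24 and Mib1 between the ends from -0.80 to -0.32. Depth limits Trim55 and Fbxo30 most, and the causes of the changed counts were not tested.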
